A study of Homo sapiens with 10 samples.

Results

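GDF15, STC2, VEGFA and ADM encode secreted factors that stressed cells release, and their ribosome footprint levels were followed in surviving pancreatic cancer cells after exposure to imidazole ketone erastin (IKE). The 4 genes were taken by their Ensembl IDs from the 20289 genes of the table: ENSG00000130513 (GDF15), ENSG00000113739 (STC2), ENSG00000112715 (VEGFA) and ENSG00000148926 (ADM). GDF15 and STC2 were picked for their higher values in CFPAC-1 cells with IKE, so that difference is a description and was not tested. VEGFA and ADM complete the set with no stated reason, and the CFPAC-1 comparison is given for them in the same way.

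GDF15 is a distant member of the TGF-β superfamily whose circulating form acts on the brainstem receptor GFRAL with its co-receptor RET and lowers food intake. STC2 (stanniocalcin 2) is a glycoprotein hormone that inhibits the pappalysin proteases, which release insulin-like growth factors from their binding proteins. VEGFA is the main growth factor for blood vessels, and ADM is the precursor of adrenomedullin, a vasodilator peptide. GDF15 and STC2 are known targets of the integrated stress response, in which amino acid shortage or endoplasmic reticulum stress raises translation of the transcription factor ATF4. VEGFA and ADM are classical targets of the hypoxia-inducible factors, and VEGFA also responds to ATF4. Erastin-class compounds block the cystine importer of the cell and are used to induce ferroptosis, an iron-dependent death by lipid peroxidation.

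Ribosome profiling sequences the mRNA pieces that ribosomes protect from nuclease, so a value joins mRNA abundance with translation and does not measure secreted protein. The established pancreatic ductal adenocarcinoma lines CFPAC-1 and PANC-1 were measured in 10 libraries: CFPAC-1 with 0.1% DMSO (n = 2) or 10 µM IKE (n = 2), and PANC-1 with 0.1% DMSO (n = 2) or 1 µM IKE (n = 4). The dose differed between the lines, so line and dose cannot be told apart. Only cells that survived were collected. The treatment label gives 24 h and the extraction protocol 5 days in a row, so the length of exposure is not settled. The libraries of a group are labelled as biological replicates. All values are FPKM, that is footprint fragments scaled by the length of the gene and by the mapped fragments of the library.

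The libraries were not alike in depth. Relative to CFPAC-1 DMSO replicate 1, the CFPAC-1 libraries had 0.917 to 1.17 times the reads and the PANC-1 libraries 0.211 to 0.875 times. The shallowest were PANC-1 IKE replicates 2 (0.24) and 4 (0.211). PANC-1 IKE replicate 4 stood apart in other ways. Its 10 most abundant genes held 23.1% of summed FPKM, against 8.51% to 16.2% in the other 9 libraries. Its log2 values correlated with those of the other IKE replicates at 0.884 to 0.901, while those 3 correlated with each other at 0.936 to 0.965. A set of 26 genes was abundant in CFPAC-1 (no library under 200 FPKM) and listed at 0 in replicate 2 of PANC-1 DMSO. Of these genes, PANC-1 IKE replicate 4 held a summed level of 0.87% of the CFPAC-1 mean. PANC-1 DMSO replicate 2 is at 0% by the choice of genes, and the remaining PANC-1 libraries held 0.00185% to 0.213%. Results for PANC-1 are therefore given with and without IKE replicate 4. The labelled cell type could not be checked against marker genes, because the table pairs no ID with a name.

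By the RefSeq annotation of GRCh38.p14, GDF15 lies at chr19:18386158-18389176, STC2 at chr5:173314723-173328414, VEGFA at chr6:43770211-43786487 and ADM at chr11:10305073-10307397. GDF15, STC2 and ADM have 1 RefSeq transcript each and VEGFA has 20, so the length behind an FPKM is less certain for VEGFA. The microRNA gene MIR3189 (chr19:18386562-18386634) lies inside GDF15, and no other annotated gene overlaps the 4 spans. GDF15 and STC2 were picked for their rise in CFPAC-1, and ADM, with its much lower level there, serves for comparison. VEGFA had no entry among the promoter sequences used here, so its promoter was neither shown nor searched. The 250 bases before the transcription start of GDF15, STC2 and ADM are shown from RefSeq. They are written 5′ to 3′ on the gene's strand at chr19:18385908-18386157 (plus), chr5:173328415-173328664 (minus) and chr11:10304823-10305072 (plus), and capitals mark the CCAAT box, the GC box GGGCGG, the TATA box TATAAA and the hypoxia response core GCGTG, on either strand.
GDF15: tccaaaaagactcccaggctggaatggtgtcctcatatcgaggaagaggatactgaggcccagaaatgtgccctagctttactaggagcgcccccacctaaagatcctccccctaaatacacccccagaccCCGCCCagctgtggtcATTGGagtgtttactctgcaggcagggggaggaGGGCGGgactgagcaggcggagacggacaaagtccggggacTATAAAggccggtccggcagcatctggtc
STC2: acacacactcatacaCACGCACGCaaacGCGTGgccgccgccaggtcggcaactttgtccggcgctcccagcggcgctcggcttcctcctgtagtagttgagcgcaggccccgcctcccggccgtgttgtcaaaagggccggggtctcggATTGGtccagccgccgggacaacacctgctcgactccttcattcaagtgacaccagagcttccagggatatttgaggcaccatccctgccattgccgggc
ADM: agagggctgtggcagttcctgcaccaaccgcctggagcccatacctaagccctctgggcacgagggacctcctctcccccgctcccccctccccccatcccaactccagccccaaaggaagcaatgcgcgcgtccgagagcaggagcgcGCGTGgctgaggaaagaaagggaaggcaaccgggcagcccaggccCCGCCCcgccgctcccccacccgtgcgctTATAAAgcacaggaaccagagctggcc

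The GDF15 sequence held 1 CCAAT box in reverse, from 103 to 99 bases before the start, 2 GC boxes and a TATA box from 29 to 24 bases before the start. STC2 held 1 reversed CCAAT box at nearly the same distance, from 100 to 96 bases, and no TATA or GC box. It also had 3 matches to GCGTG, 2 of which overlap by 1 base. ADM held a TATA box from 27 to 22 bases before the start, 1 GC box and 1 GCGTG. Among the 35116 promoters of the same table, read over the same 250 bases and both strands, 32% held a CCAAT box, 42.6% the GC box, 10.7% the TATA box and 32.2% GCGTG. None of the 3 sequences held TGATGNAA, the C/EBP-ATF composite element through which ATF4 acts (3.14% of all promoters), the AP-1 site TGANTCA (6.57%) or the other hypoxia response core, ACGTG (18.5%). A match is a match of letters only, and other letters, exons and distant elements were not searched.

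In CFPAC-1, the levels of GDF15 and STC2 stood several-fold higher with 10 µM IKE than with DMSO, VEGFA stood less than 2-fold higher and ADM overlapped between the groups. The level of GDF15 was 54.4 and 51.2 FPKM in the DMSO libraries, and in the IKE libraries it was 192 and 187 FPKM. Both IKE libraries lay far above both DMSO libraries, and the replicates differed little (CV 4.22% with DMSO, 1.55% with IKE). The log2 fold change of FPKM + 1 was 1.82 ± 0.12 (SE), a 3.54-fold difference.

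The DMSO libraries held 42.9 and 66.3 FPKM of STC2, and the IKE libraries 238 and 231 FPKM. Its DMSO replicates were less alike than those of GDF15 (CV 30.3%), yet the groups stayed wide apart. The log2 fold change was 2.11 ± 0.21 (SE), a 4.33-fold difference, and ran from 1.81 to 2.42 when 1 library was left out. Both genes moved up the list of all genes: GDF15 from rank 3418 and 3641 to 1234 and 1275, and STC2 from rank 4060 and 3021 to 989 and 1042. A rank does not depend on how a library was scaled.

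VEGFA, the vessel growth factor, gave 81.4 and 92.0 FPKM with DMSO and reached 142 and 168 FPKM with IKE, a log2 fold change of 0.83 ± 0.14 (SE). The groups did not overlap. ADM, the adrenomedullin precursor, gave 9.97 and 6.34 FPKM with DMSO, against 9.04 and 16.8 FPKM with IKE, so that 1 IKE library lay between the DMSO libraries. Its log2 fold change of 0.57 ± 0.35 (SE) was 0.16 without IKE replicate 2, 0.28 without DMSO replicate 2, 0.86 without DMSO replicate 1 and 0.99 without IKE replicate 1.

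Against the 12563 genes of this comparison, 17 genes had a higher log2 fold change than STC2 and 29 a higher one than GDF15. For VEGFA the number was 280 and for ADM 687. The quartiles of all genes were -0.21 and 0.2, with a median of -0.02. Of the 4 factors, 3 had both IKE libraries above both DMSO libraries, where 20.8% of all genes did. Since this comparison was used to pick the genes, nothing is read from that count. Limma, fitted to the CFPAC-1 libraries alone, called 16 genes of all kinds (0.127%), all higher.

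**Figure D1:**
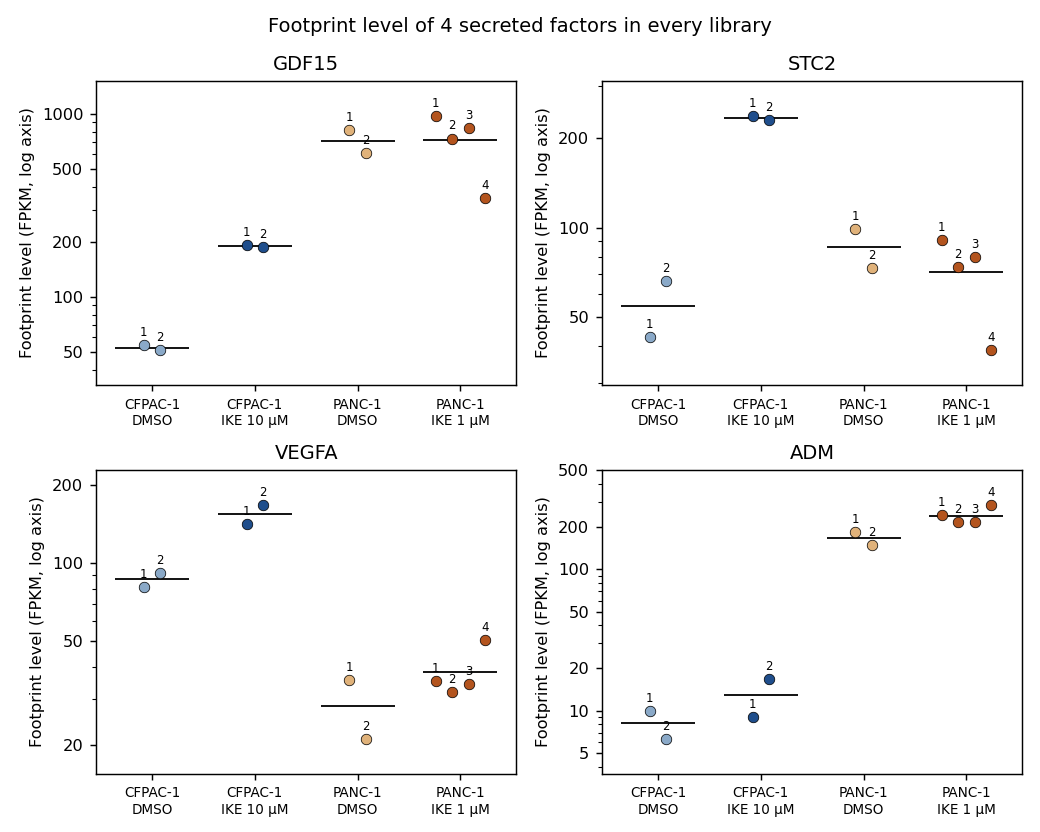
Footprint level in FPKM (log axis) of GDF15, STC2, VEGFA and ADM in each of the 10 libraries, grouped by line and treatment; points are libraries with their replicate number and bars are group means. GDF15 and STC2 stand higher with IKE in CFPAC-1, while in PANC-1 the IKE and DMSO libraries overlap for GDF15, STC2 and VEGFA and replicate 4 lies lowest for GDF15 and STC2 and highest for VEGFA and ADM.

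In PANC-1, none of the 4 genes passed the test with 1 µM IKE, and the IKE and DMSO libraries overlapped for GDF15 and STC2. The rule that picked GDF15 and STC2 names no PANC-1 value, and it gives no reason for VEGFA and ADM. The DMSO libraries held 815 and 608 FPKM of GDF15, and the level was 972, 733, 839 and 347 FPKM in IKE replicates 1 to 4. The IKE libraries lay on both sides of the DMSO libraries, with replicate 4 lowest of all 6. The log2 fold change was -0.06 ± 0.43 (SE; 95% interval -1.01 to 0.89; limma adjusted p = 0.966). Its direction was not settled, since it was 0.26 ± 0.30 without IKE replicate 4 (limma adjusted p = 0.794) and 0.15 with quantile normalization.

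STC2 gave 98.8 and 73.1 FPKM with DMSO, against 90.8, 74.0, 79.9 and 38.8 FPKM in IKE replicates 1 to 4. IKE replicates 1 to 3 lay between the DMSO libraries and replicate 4 below both. The log2 fold change was -0.33 ± 0.39 (SE; 95% interval -1.19 to 0.53; limma adjusted p = 0.761), and -0.06 without IKE replicate 4 or -0.11 without DMSO replicate 1.

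VEGFA gave 35.4 and 21.1 FPKM with DMSO, against 35.2, 31.8, 34.3 and 50.6 FPKM in IKE replicates 1 to 4. Of the IKE libraries, only replicate 4 lay above both DMSO libraries. The log2 fold change was 0.44 ± 0.36 (SE; 95% interval -0.36 to 1.23; limma adjusted p = 0.652). It was 0.29 without IKE replicate 4, 0.80 without DMSO replicate 1 and 0.08 without DMSO replicate 2. ADM gave 182 and 147 FPKM with DMSO, against 240, 214, 217 and 285 FPKM with IKE, above both DMSO libraries in 4 of 4 IKE libraries. The log2 fold change of 0.53 ± 0.30 (SE; 95% interval -0.14 to 1.20; limma adjusted p = 0.519) did not pass the threshold. It was 0.44 without IKE replicate 4 and 0.38 to 0.68 with any 1 library left out.

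Of the 4 genes, 0 were called by limma and 0 had an unadjusted p under 0.05 (the lowest was 0.107, for ADM). Among the 12611 genes tested, 2 were called (0.0159%) and 1398 had an unadjusted p under 0.05. ADM was the single one of the 4 whose IKE libraries all lay above the DMSO libraries, which 10.6% of all genes did. The quartiles of all genes were -0.45 and 0.40. GDF15 and STC2 fell between them, and VEGFA and ADM just above the upper one. The intervals do not exclude modest changes. For GDF15 the upper limit allows a 1.85-fold and for STC2 a 1.45-fold rise. These limits are from the fit of all PANC-1 libraries and move with the libraries used. The log2 fold change of GDF15 was 0.26 ± 0.30 (SE) without IKE replicate 4. It was 0.26 ± 0.53 (SE) with replicates 1 and 2 of each group fitted as blocks. Both genes were picked for the CFPAC-1 values, so the lines were not compared by a test.

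PANC-1 IKE replicate 4 departed from the other 3 IKE libraries in opposite directions for the 2 pairs of genes. GDF15 there was 0.413 times and STC2 0.486 times the median of the other 3, while VEGFA was 1.48 times and ADM 1.31 times that median. No single scaling factor for this library would bring all 4 to the level of the others. Among the 6226 genes that averaged 20 FPKM or more in the IKE libraries, 6.44% lay lower than GDF15 by this measure and 12.4% lower than STC2, while 18.7% lay higher than VEGFA and 24.6% higher than ADM. By rank, STC2 was at 4080 in replicate 4 and at 2164 to 2489 in the other 5 PANC-1 libraries, and GDF15 was at 506 against 215 to 331. The part that depth or the abundant genes of this library play in these values was not tested.

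**Figure D2:**
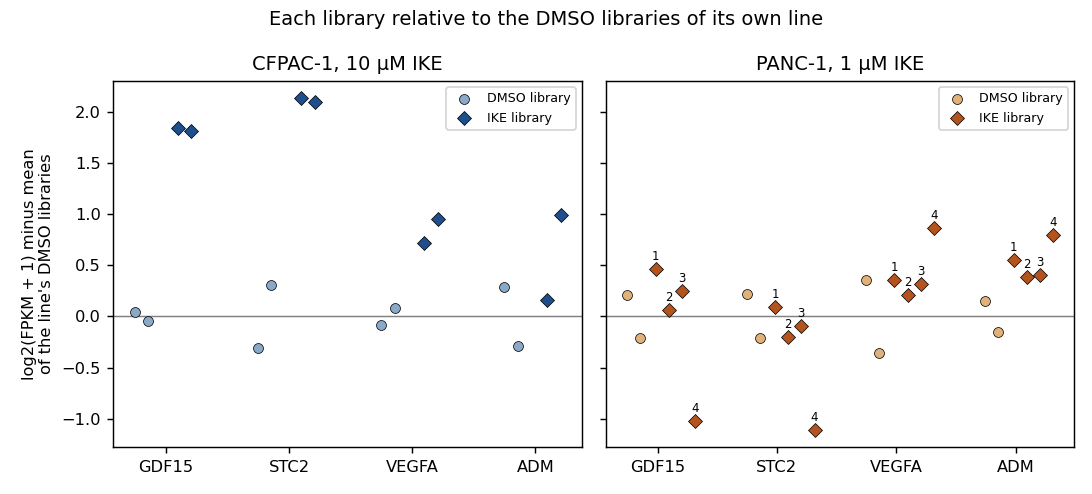
Each library as log2(FPKM + 1) minus the mean of the DMSO libraries of its own line, for CFPAC-1 (left, 10 µM IKE) and PANC-1 (right, 1 µM IKE); circles are DMSO libraries, diamonds IKE libraries, numbered by replicate in PANC-1. In CFPAC-1 both IKE libraries are high for GDF15 and STC2, and in PANC-1 replicate 4 is the low point for these genes and the high point for VEGFA and ADM.

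Set side by side, the log2 fold changes in CFPAC-1 and PANC-1 were 1.82 and -0.06 for GDF15, 2.11 and -0.33 for STC2, 0.83 and 0.44 for VEGFA, and 0.57 and 0.53 for ADM. The distance between the lines was thus -1.89 for GDF15 and -2.44 for STC2 but -0.40 for VEGFA and -0.04 for ADM. These differences were not tested, because the CFPAC-1 values had been used to choose the genes, and the doses differ. For ADM even the sign of the distance changed with the pseudocount or the scaling.

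**Figure D3:**
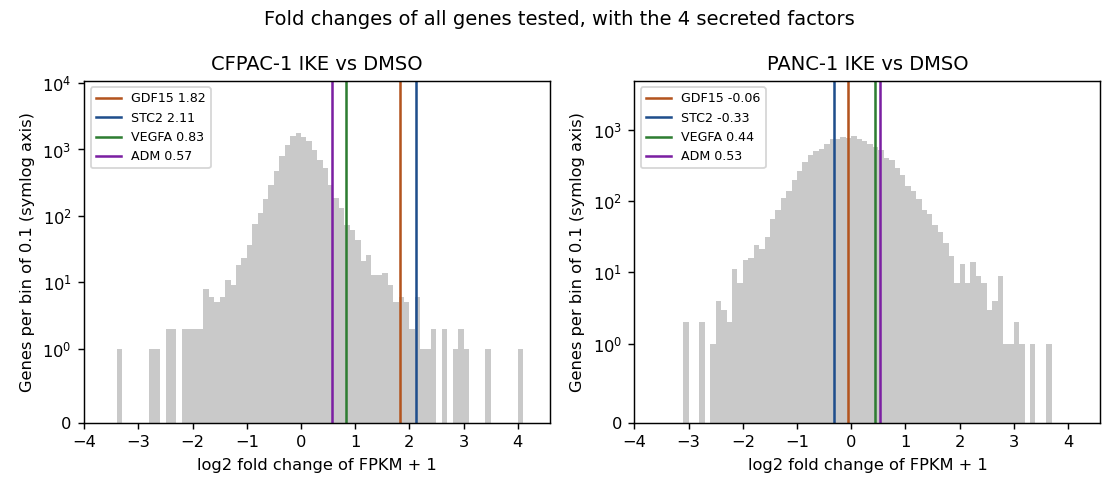
Number of genes (symlog axis) by log2 fold change of FPKM + 1 in bins of 0.1, for CFPAC-1 (left) and PANC-1 (right), IKE against DMSO; vertical lines mark the 4 secreted factors. GDF15 (1.82) and STC2 (2.11) lie in the upper tail in CFPAC-1 and near the middle of the distribution in PANC-1.

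With DMSO alone, the lines differed severalfold in the footprint levels of GDF15, VEGFA and ADM, and less in STC2. ADM was 164.8 ± 24.6 FPKM (SD, n = 2) in PANC-1 and 8.16 ± 2.57 FPKM (n = 2) in CFPAC-1. The log2 difference of 4.20 ± 0.34 (SE; 95% interval 3.45 to 4.95; limma adjusted p = 1.03e-05) was an 18.4-fold higher level in PANC-1. VEGFA went the other way, at 28.2 ± 10.1 FPKM in PANC-1 and 86.7 ± 7.5 FPKM in CFPAC-1 (n = 2 each), a log2 difference of -1.63 ± 0.32 (SE; 95% interval -2.34 to -0.91; limma adjusted p = 0.00339). Both calls, that is 2 of the 2 genes tested here, held in all 20 alternatives, with limma adjusted p from 4.80e-06 to 0.00142 for ADM and from 0.00101 to 0.0356 for VEGFA. In many of these alternatives, including those without an IKE library, the log2 difference itself could not change. Only its error and the set of genes tested could. Of the 13125 genes, 33.6% were called between the lines, so a difference at baseline was common.

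GDF15 and STC2 share their CFPAC-1 DMSO values with the comparison that picked them, so their baseline is a description. GDF15 was at 711.7 ± 146.8 FPKM in PANC-1 DMSO against 52.8 ± 2.2 FPKM in CFPAC-1 DMSO, a log2 difference of 3.71 ± 0.43 (SE), or 13.1-fold. The difference in STC2 was smaller, 86.0 ± 18.1 against 54.6 ± 16.5 FPKM, a log2 difference of 0.66 ± 0.40 (SE), which was 0.35 without CFPAC-1 DMSO replicate 1, 0.97 without CFPAC-1 DMSO replicate 2 and 0.45 without PANC-1 DMSO replicate 1. For both genes the PANC-1 DMSO libraries lay above the CFPAC-1 DMSO libraries, which 33.8% of all genes did.

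The order of the groups differed from gene to gene. For GDF15 it ran from CFPAC-1 DMSO to CFPAC-1 IKE and then to PANC-1, whose 2 groups overlapped. The 347 FPKM of PANC-1 IKE replicate 4, its lowest PANC-1 value, was still above the 192 FPKM reached in CFPAC-1 with IKE. For STC2, CFPAC-1 IKE was highest at 234 ± 5 FPKM, and PANC-1 IKE overlapped with PANC-1 DMSO. CFPAC-1 DMSO overlapped with PANC-1 IKE through replicate 4 alone (38.8 FPKM), and the other PANC-1 IKE libraries lay above both CFPAC-1 DMSO libraries. For VEGFA, CFPAC-1 IKE (155.4 ± 18.3 FPKM) stood above CFPAC-1 DMSO, and both stood above the PANC-1 groups, whose highest library was at 50.6 FPKM. For ADM, every PANC-1 library (147 to 285 FPKM) lay above every CFPAC-1 library (6.34 to 16.8 FPKM), and the 2 CFPAC-1 groups overlapped.

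The relation between the genes within a library is free of that library's scaling and was examined after the levels had been seen. GDF15 and STC2 were footprinted at similar FPKM in CFPAC-1, with a GDF15 to STC2 ratio of 1.27 and 0.773 with DMSO and 0.805 and 0.813 with IKE. The 2 IKE ratios lay between the 2 DMSO ratios, which were themselves far apart. Both genes were picked for their rise in this comparison, so nothing is read from their ratio in CFPAC-1. In PANC-1 the ratio was 8.25 and 8.31 with DMSO and 10.7, 9.92, 10.5 and 8.94 in IKE replicates 1 to 4. All 4 IKE libraries lay above both DMSO libraries, replicate 4 included, by 1.21-fold on average. How many other pairs of genes have such a ratio was not counted. The exact two-sided permutation test gave p = 0.0667, the smallest that 4 against 2 libraries allow.

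For ADM over VEGFA, the IKE and DMSO ratios overlapped in both lines. Their ratio was 0.122 and 0.069 with DMSO and 0.0635 and 0.0996 with IKE in CFPAC-1. In PANC-1 it was 5.15 and 6.997 with DMSO and 6.82, 6.74, 6.33 and 5.64 with IKE, inside the DMSO range in 4 of 4 libraries (exact two-sided permutation p = 0.8). The 2 ratio tests belong to 1 family. Neither could pass the call threshold, because the smallest p that 4 against 2 libraries allow in this exact permutation test is 0.0667. GDF15 over STC2 reached that smallest value and ADM over VEGFA did not. No conclusion is drawn from the lack of a pass.

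**Figure D4:**
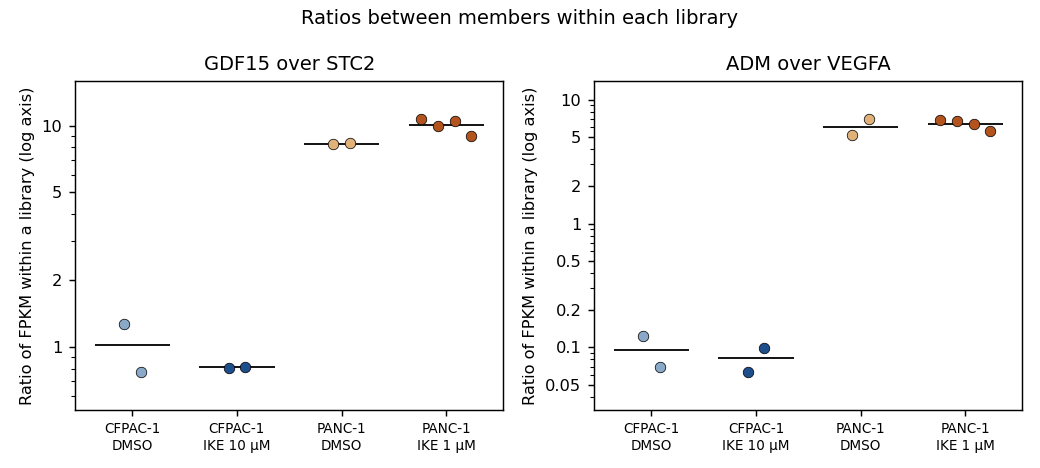
Ratio of FPKM within each library (log axis) for GDF15 over STC2 and ADM over VEGFA, by line and treatment; points are libraries and bars are group means. GDF15 over STC2 is 0.773 to 1.27 in CFPAC-1 and 8.25 to 10.7 in PANC-1, where the 4 IKE libraries lie above the 2 DMSO libraries. ADM over VEGFA is at most 0.122 in CFPAC-1 and 5.15 to 6.997 in PANC-1.

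Over the 10 libraries, which share 2 lines and so mostly show the difference between them, the patterns of the 4 genes were of unequal rarity. Among the genes that averaged 5 FPKM or more, 10702 beside the gene itself, 404 had a Pearson correlation of log2(FPKM + 1) above 0.95 with ADM, 33 with VEGFA and 12 with GDF15. For STC2, which was high in CFPAC-1 IKE alone, the number was 0 and the closest gene reached 0.858. STC2 and GDF15 were picked for their rise in CFPAC-1 with IKE, so nothing is read from the rarity of their patterns. The counts are descriptions across libraries, and the correlated genes are not named because their IDs are not paired with names.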

How the data were processed

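Ribosome footprint libraries were compared. The deposited table gives FPKM, per the file headers, computed by the authors for each library without pooling. The tools listed in the submitters' processing notes, without their roles, are Bowtie2 2.2.8, DESeq2, fastp, RSEM and STAR, and the build is GRCh38. Which annotation, strand setting and footprint lengths were used is not given in the sources used here. The genes and lists were chosen with earlier results of these data known. The 7 gene lists and 6 marker lists were not used, because 0 of the 20289 IDs matched a name. The rule named the 4 genes only.

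Limma 3.58.1 (R 4.3.3) was fitted to log2(FPKM + 1) of genes averaging 1 FPKM or more, with the trend option of eBayes, and p-values were adjusted over all genes by Benjamini-Hochberg (call threshold 0.05). Each line was fitted alone for IKE, because PANC-1 libraries varied more (median residual SD 0.489 against 0.181 in CFPAC-1), and all 10 libraries together for the baseline. Relative depth came from the steps between low FPKM values, and absolute depth is unknown. Pseudocount, filter, scaling, weights, trend, replicate block, model and left-out libraries were varied.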

Additional observations from a re-analysis of the deposited data

How the results depend on the processing

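In CFPAC-1 the log2 fold changes of all 4 genes kept their sign in the 14 alternatives run for each. GDF15 and STC2 were picked for this rise, so their kept sign is no support for it. Several alternatives, such as the filters and the trend, leave the estimate itself unchanged. GDF15 was 1.75 with a pseudocount of 5 FPKM, outside its narrow replicate spread, and 1.78 to 1.87 with 1 library left out. In PANC-1 no alternative called any of the 4 genes. ADM and VEGFA stayed positive in all 17, while VEGFA was 0.08 without DMSO replicate 2 and STC2 was 0.0020 with IKE replicates 2 and 4 both left out. GDF15 turned positive in 6 of 17, among them 0.15 with quantile normalization, 0.19 with library weights and 0.36 without IKE replicates 2 and 4. With 1 library left out it ran from -0.27 to 0.26. It was then positive only without DMSO replicate 1 (0.15) or IKE replicate 4 (0.26).

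With the replicate block (replicates 1 and 2 of each group) GDF15 was 0.26 in PANC-1 (limma adjusted p = 0.999), and calls over all genes went from 2 to 6 in PANC-1 and from 16 to 65 in CFPAC-1. The numbers were not taken as pairs, since deviations of same-numbered libraries correlated at only 0.056 in CFPAC-1 and -0.215 and -0.209 in PANC-1.

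The counts over all genes were fragile. PANC-1 had 0 calls with a pseudocount of 0.1 FPKM, 1 with no filter, 1 with a mean of at least 5 FPKM, and 0 to 3 with 1 library left out (0 without either DMSO library, 1 without IKE replicate 2 or 3, 3 without replicate 4). CFPAC-1 had 4 with no filter, 0 without the trend, 1 in the shared model, and 0 to 4 with 1 library left out (4 and 0 without DMSO replicate 1 and 2, 1 and 0 without IKE replicate 1 and 2). The baseline had 2474 to 5332 with 1 library left out, with 2474 and 2485 without CFPAC-1 DMSO replicate 1 and 2. The cause of these changes was not tested.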
